A study of Mus musculus with 26 samples.

Results

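Stra8 and 8 further genes of germ cells and the entry into meiosis were described in mouse embryonic stem cells that had been given retinoic acid or not. The 9 genes (Stra8, Meioc, Rec8, Sycp3, Dazl, Dmrt1, Dmrtb1, Ddx4 and Mael) were chosen by name for their roles. The choice was made with earlier results of these data known. All 9 were found among the 21938 protein-coding genes of the GENCODE annotation of GRCm38. The cells were of E14, a line of mouse embryonic stem cells for which the labels name no engineered allele, and were grown for 48 h. During the last 4 h, one state received leukemia inhibitory factor (LIF), the cytokine that keeps these cells pluripotent (mESC+). In the other state, LIF was withdrawn and 1 µM retinoic acid (RA) was added (mESC−), so that the effects of RA and of the loss of LIF cannot be told apart. Used here were 1 ATAC-seq peak list per state, made from 75000 cells each, a list of 327 dynamic enhancer regions built from 4 ChIP-seq libraries per state, and a table of 2189 genes from 3 RNA-seq libraries per state.

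Meiosis is the division by which germ cells halve their chromosomes. In the gonad, RA binds nuclear receptors (RAR with its partner RXR) that sit on direct repeats of a short half-site, and the gene Stra8 is the best known target by which RA starts meiosis. Before that step, germ cells depend on RNA-binding proteins such as DAZL and on the transposon defence of the piRNA pathway. Embryonic stem cells keep many of these genes silent through repressors that bind E-box and E2F-type sequences near their starts.

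At Stra8, the lists of both chromatin assays differed between the states next to the gene start. Directly upstream of Stra8 lay the single dynamic enhancer region found within 100 kb of any of the 9 genes. Its enhancer probability was 0.0091 in mESC+, against 0.95 in mESC−. Regions entered that list because their probability differed between the states, so a large difference is given by the selection. Over the 141 regions higher in mESC−, the median probability was 0 in mESC+ and 0.911 in mESC−. Flanking the GENCODE start of Stra8, 2 ATAC-seq peaks were called in mESC− and not in mESC+. Each state has 1 library per assay, so these differences are between libraries and have no replicate check.

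The sequences that carry these positions were read from GRCm38 and are shown on the plus strand, 5′ to 3′. Capitals mark the half-sites of direct repeats with at most 1 mismatch in all. The half-sites searched were AGGTCA and its variant AGTTCA as well as the pair of GGGTCA and also its variant GGTTCA, on both strands, with a spacing of 5, 2 or 1 bases (DR5, DR2 and DR1). The first is the whole upstream peak of mESC−, the second is the part of the peak shared by both states that lies before the gene start, and the third is the repeat under the other mESC− peak.
Stra8 upstream peak, chr6:34919303-34919480: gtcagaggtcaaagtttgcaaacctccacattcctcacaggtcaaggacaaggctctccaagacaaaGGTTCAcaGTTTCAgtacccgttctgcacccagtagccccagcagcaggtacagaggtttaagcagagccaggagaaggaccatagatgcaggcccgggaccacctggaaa
Stra8 start peak, chr6:34920040-34920162: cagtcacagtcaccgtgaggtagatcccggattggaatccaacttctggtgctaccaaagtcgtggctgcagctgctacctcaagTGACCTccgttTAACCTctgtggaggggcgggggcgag
Stra8 exonic repeat, chr6:34920738-34920767: cctggatgGGGTGAaaAGGTCAtcttgctc

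Stra8 (ENSMUSG00000029848), the gatekeeper of meiotic entry, lies on the plus strand of chromosome 6 from 34920163 to 34939344. RefSeq places its start 785 bases further downstream, at 34920948. In the mESC+ list, a peak of 203 bp from 34920092 to 34920294 covered the GENCODE start with a fold enrichment of 8.36 over the local background. The mESC− list held a peak of 271 bp at the same place, from 34920040 to 34920310, with a fold enrichment of 7.85. Fold enrichments depend on the depth of a library, which is unknown here, so each peak was also ranked within its own list. The shared start peak stood at percentile 66.0 of the mESC+ list and at percentile 64.1 of the mESC− list by fold enrichment. By −log10 p, a ranking added after seeing the data, the order was reversed, with percentile 70.9 in mESC+ and 83.3 in mESC−, so that its direction depends on the measure of rank.

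The peaks called in mESC− only were weaker. The upstream one, of 178 bp, had a fold enrichment of 4.52 (percentile 14.3, −log10 p of 9.72) with its summit 766 bases before the GENCODE start. The other one, of 224 bp from 34920727 to 34920950, had a fold enrichment of 5.54 (percentile 34.4, −log10 p of 13.8). It lies within an exon of the longest transcript (34920637 to 34921054) and covers the RefSeq start near its downstream end. Thus, one of these peaks flanks each side of the start peak that both lists share. The mESC+ list has no entry at either place, which says that no peak was called there and not that no reads were present. In the opposite direction, an intronic peak of Stra8 was called in mESC+ only, 1.65 kb downstream of the GENCODE start. It had a fold enrichment of 4.18 (percentile 10.5).

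**Figure D1:**
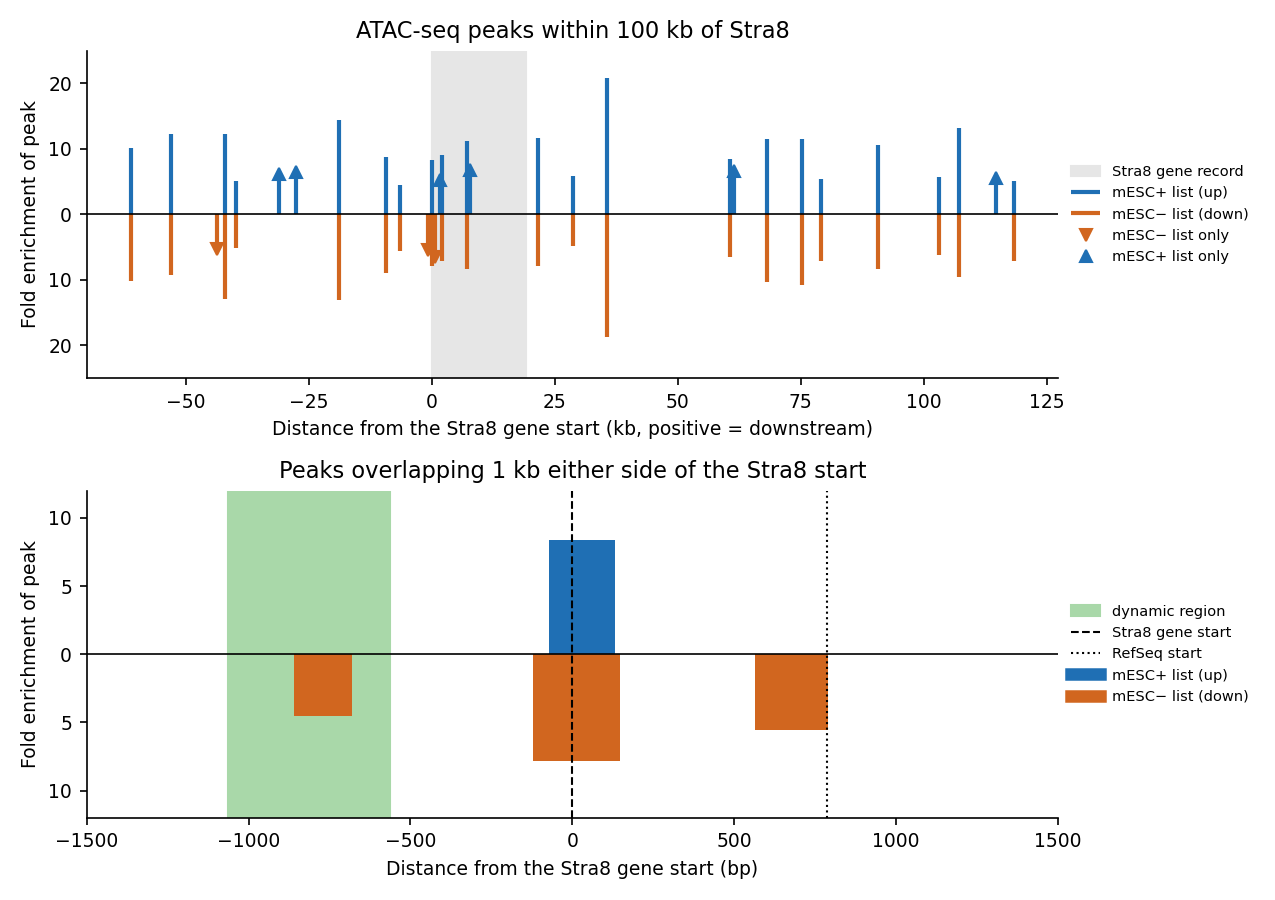
Fold enrichment of ATAC-seq peaks around Stra8 in the mESC+ list (upward) and the mESC− list (downward) against the distance from the gene start, within 100 kb of the gene body (top, in kb) and around the start (bottom, in bp). Triangles mark peaks in 1 list only, and the green band marks the dynamic region, which holds the weaker of the 2 peaks called in mESC− only (fold enrichment 4.52) near the start.

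A peak of the mESC− list alone within 1 kb of the start was found for 3 of the 9 genes, against 7.55% of all protein-coding genes. The other genes were Dazl and Mael, with 1 such peak each, at percentiles 7.39 and 6.56. Stra8 was one of 95 genes (0.433% of 21938) with at least 2 such peaks. Among these 95 genes, a dynamic region higher in mESC− lay within 2 kb of the start of Stra8 and of no other gene. Within 100 kb, 5 of the 95 genes had such a region, against 2.56% of all protein-coding genes. The share of all genes with one within 2 kb was not computed. These counts were chosen after the values had been seen. In the opposite direction, 1 of the 9 genes, Dmrtb1, had a peak of the mESC+ list alone within 1 kb, against 11.7% of all genes.

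The dynamic enhancer regions come from CRUP, a random forest that reads H3K4me1, H3K4me3 and H3K27ac, the histone marks of enhancers and promoters. The region next to Stra8 spans 500 bp, from 34919101 to 34919600 on chromosome 6, and begins 1062 and ends 563 bases before the GENCODE start. This width is the smallest in the list, held by 25 of the 141 regions that were higher in mESC−, whose median width was 1400 bp. The probability of the Stra8 region in mESC− exceeded that of 100 of these 141 regions. The upstream ATAC-seq peak of mESC− lies wholly inside it, whereas no peak of the mESC+ list overlaps it. Of the 141 regions higher in mESC−, 86 overlapped peaks of both lists, 35 overlapped no peak, 2 overlapped peaks of mESC+ only and 18 overlapped peaks of mESC− only (12.8%, exact 95% binomial interval 7.74% to 19.4%, counting error only). The pattern seen at Stra8 was thus not the most frequent one. These overlaps were not corrected for the width of a region. Among the 186 regions higher in mESC+, 147 overlapped peaks of both lists, 28 overlapped no peak and 11 overlapped peaks of mESC+ only. Peaks of mESC− only were overlapped by 0 of them, which allows a share of up to 1.96% by the same interval. Of the 18 regions higher in mESC− that overlapped peaks of mESC− only, those at Stra8, Atg4d and H2al3 lay within 1 kb of a protein-coding gene start. Over all regions, 9 of the 141 higher in mESC− (6.38%) and 12 of the 186 higher in mESC+ (6.45%) lay at a gene start.

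A dynamic region higher in mESC− lay within 100 kb of 1 of the 9 genes, against 2.56% of all protein-coding genes. For regions higher in mESC+ the count was 0 of 9, against 2.11%. The nearest region of mESC− to any other of the genes was 1599 kb from Meioc, followed by 1906 kb from Dmrt1 and 2380 kb from Dazl. For Rec8, Sycp3, Dmrtb1, Ddx4 and Mael, the distance was at least 10374 kb. The nearest region higher in mESC+ was 1625 kb from Ddx4. The region next to Stra8 is also close to other genes, and which gene it acts on was not tested. The start of Wdr91 is 8224 bp away, that of Cyren 41040 bp, that of Tmem140 55954 bp and that of Slc23a4 68803 bp. Of these neighbours, Wdr91 has a row in the RNA-seq table.

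**Figure D2:**
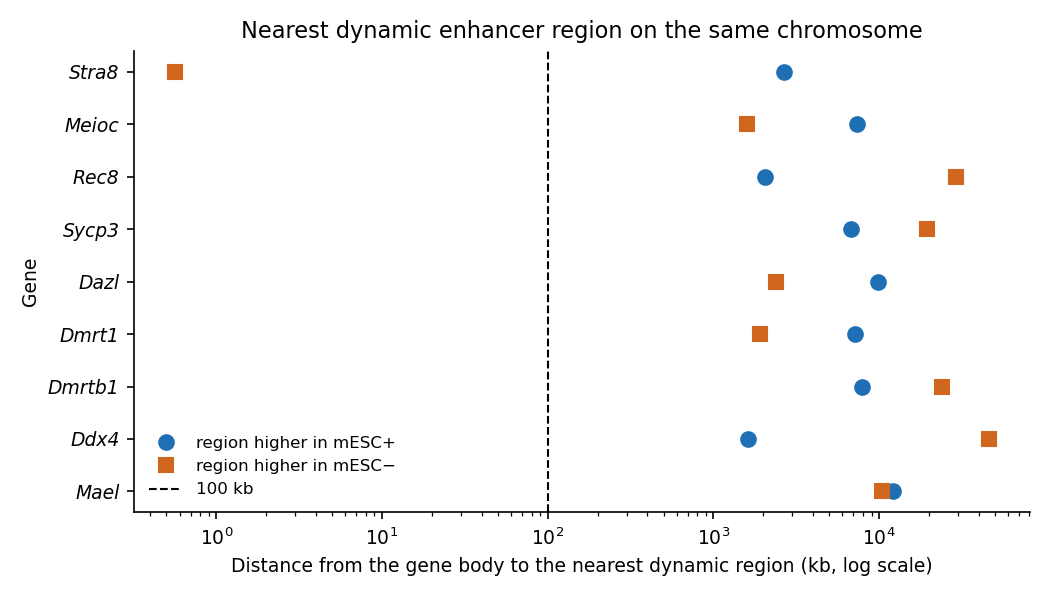
Distance in kb (log scale) from the body of each gene to the nearest dynamic region higher in mESC+ (circles) and higher in mESC− (squares) on the same chromosome. The square of Stra8, at 0.562 kb, is the single point left of the 100 kb line.

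The RNA-seq table has a row for 3 of the 9 genes, against 9.04% of protein-coding genes (1984 of 21938). They are Stra8, Sycp3 and Dmrt1. The level used here is the authors' mean of normalized read counts over all 6 libraries of both states, which has no error and cannot be split by state. The rows carry no direction here, because the columns of the authors' own comparison were not used. Whether RA raised Stra8 alone or together with the other genes was therefore not tested on expression. The rule by which genes entered the table is not given in the sources used here, so a missing row says neither that a gene is silent nor that it is steady.

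The authors' mean of Stra8 was 952 normalized counts, or 528 per kb of exon, at percentile 78.98 of the 2188 rows placed on GRCm38. Dmrt1 (ENSMUSG00000024837), a transcription factor of germ cells and Sertoli cells that controls Stra8 in the testis, had an authors' mean of 997 counts. Per kb of exon this was 384, at percentile 72.3. Sycp3 (ENSMUSG00000020059), a structural protein of the synaptonemal complex that pairs chromosomes, had an authors' mean of 328 counts and 259 per kb, at percentile 64.1. The median of the table was 138 per kb, with quartiles of 38.2 and 430 per kb. All 3 genes thus lay above the table's median level per length. Stra8 was above the upper quartile per kb of exon but not per kb of the longest transcript, where it stood at percentile 74.0.

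No row was present for Meioc, which holds cells in meiotic prophase, or for Rec8, the meiotic cohesin. The same held for Dazl, Dmrtb1 (a relative of Dmrt1 active when spermatogonia turn to meiosis), Ddx4 (the germ cell RNA helicase also called Vasa) and Mael (a factor of piRNA-guided transposon silencing).

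Start peaks were common both among the 9 genes and among all genes. A peak within 1 kb of the gene start was listed for 8 of 9 genes in mESC+, against 67.7% of all protein-coding genes, and for 7 of 9 in mESC−, against 66.4%. Both lists held one for 7 genes (77.8%, exact 95% binomial interval 39.99% to 97.2%), against 65.7% of all protein-coding genes. A start peak in mESC− only was found for 0 of 9 genes, against 0.752% of all genes, and one in mESC+ only for 1 of 9, against 2.05%. With 9 genes, a share of up to 33.6% would also give 0. From 250 bases before to 50 after the start, Dazl had a peak in mESC− only, low in its list at percentile 7.39. The share of all genes was not computed for that window. Start peaks in mESC+ were thus listed for genes with and without a row in the RNA-seq table.

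Rec8 had the strongest start of the 9 genes in both lists. On chromosome 14, where the gene runs from 55618037 to 55625395 on the plus strand, its start peak had a fold enrichment of 20.5 in mESC+ (percentile 99.3) and 16.8 in mESC− (percentile 97.7). Dazl, which runs on the minus strand of chromosome 17 from 50279395 to 50293636, followed with 15.9 (percentile 95.4) and 14.2 (percentile 93.6). The summit of the Dazl peak lay 803 bases inside the gene in mESC+ and 799 in mESC−. Its second peak in mESC−, of 167 bp, covered the annotated start itself and had a fold enrichment of 4.07.

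Mael, on the minus strand of chromosome 1 from 166201201 to 166238747, had a start peak with a fold enrichment of 11.9 in mESC+ (percentile 85.5) and 12.9 in mESC− (percentile 90.4). Sycp3, on the plus strand of chromosome 10 from 88459569 to 88473236, had 10.7 (percentile 80.6) and 11.2 (percentile 84.0). A second and weaker peak of Sycp3, with its summit 1034 and 1026 bases downstream, was present in both lists as well. Ddx4, on the minus strand of chromosome 13 from 112598333 to 112652475, had 9.89 (percentile 76.2) and 8.72 (percentile 70.4). By fold enrichment, the ranks of each of these 3 starts in the lists were within 6 points of each other.

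The strongest start peak of Dmrt1 showed the largest difference in rank by fold enrichment among the 7 genes with a start peak in both lists. The gene spans 25505618 to 25604329 on the plus strand of chromosome 19. Its strongest start peak had a fold enrichment of 7.56 in mESC+ (percentile 60.03) and 9.66 in mESC− (percentile 77.0), a difference of 16.9 points. Among the 14403 protein-coding genes with a start peak in both lists, 3.10% had a difference at least that large in this direction. The median difference over those genes was −0.493 points, with quartiles of −5.80 and 3.38. A second and weaker start peak of Dmrt1, present in both lists, went the other way, from percentile 40.4 in mESC+ to 35.2 in mESC−. For the other 6 genes, the difference lay between −5.77 points (Ddx4) and 4.90 points (Mael) by fold enrichment. Ranked by −log10 p, Dmrt1 again had the largest difference, of 18.9 points, but Stra8 followed with 12.4 points, where 4.59% of those genes had a difference at least that large and the median was −0.702 points. The other 5 genes lay between −4.16 points (Ddx4) and 6.03 points (Mael) on this ranking.

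Meioc and Dmrtb1 stood apart at their GENCODE starts. For Meioc, on the plus strand of chromosome 11 from 102663716 to 102682237, neither list had a peak within 1 kb of the GENCODE start. A strong peak shared by both lists, from 102665101 to 102665624, covered the RefSeq start at 102665585. It had a fold enrichment of 18.0 in mESC+ (percentile 97.9) and 15.2 in mESC− (percentile 95.6). By the RefSeq start, Meioc thus had a start peak in both lists. Dmrtb1, on the minus strand of chromosome 4 from 107676290 to 107684230, had 2 weak peaks in mESC+ at fold enrichments of 4.36 and 4.48 (percentiles 12.5 and 14.2) and none in mESC−. Both were low in their list.

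**Figure D3:**
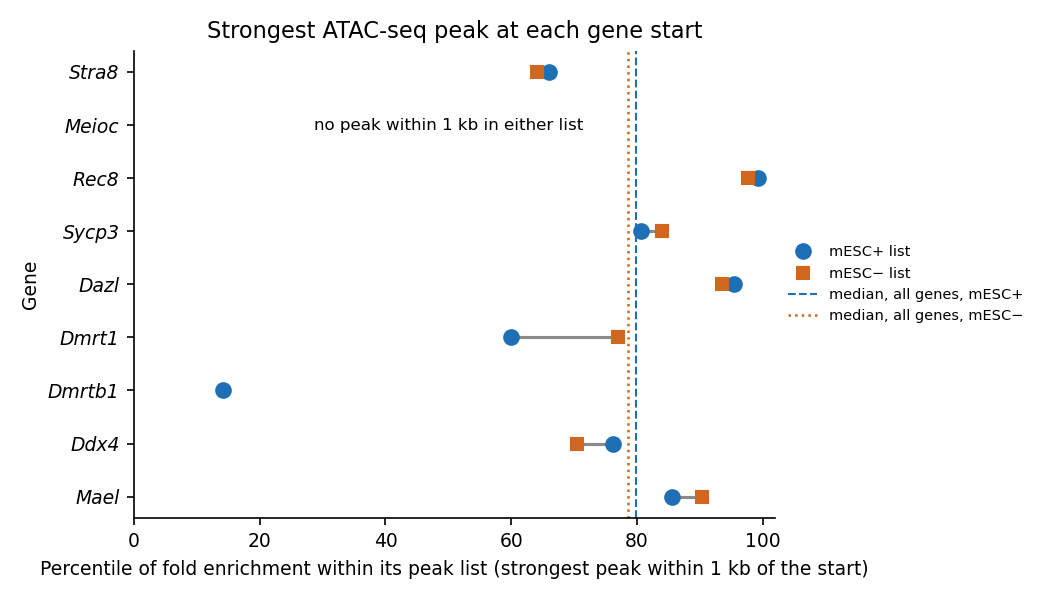
Percentile of fold enrichment, within its own list, of the strongest ATAC-seq peak within 1 kb of each gene start, for mESC+ (circles) and mESC− (squares), with the medians over all protein-coding genes that have a start peak in both lists (lines, 79.8 and 78.5). Dmrt1 has the longest connecting line, from 60.03 to 77.0.

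Beyond the starts, the gene bodies extended by 100 kb on either side held 247 peaks after the lists were merged, of which 169 were in both lists. In mESC− only, 28 were listed (11.3%, exact 95% binomial interval 7.67% to 16.0%), against 11.0% of all 180036 merged peaks. In mESC+ only, 50 were listed (20.2%, interval 15.4% to 25.8%), against 23.7%. The shares near the 9 genes were therefore near the background in both directions. The whole mESC+ list is longer, with 163484 peaks against 141465, and depth is unknown for both.

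The number of peaks differed widely between the genes. Meioc and Dmrt1 had 42 merged peaks each, Mael 36, Rec8 31, Stra8 30, Sycp3 27, Dmrtb1 and Ddx4 15 each and Dazl 9. Peaks in mESC− only numbered 6 for Dmrt1, 5 for Mael, 4 for Meioc, 3 each for Stra8, Rec8 and Sycp3, 2 for Dazl and 1 each for Dmrtb1 and Ddx4. Those of mESC+ only numbered 9 for Sycp3, 8 for Mael, 7 for Dmrt1, 6 each for Stra8 and Meioc, 5 for Dmrtb1, 4 for Ddx4, 3 for Dazl and 2 for Rec8. Only for Rec8 among the 9 genes did the mESC− count exceed the mESC+ count.

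**Figure D4:**
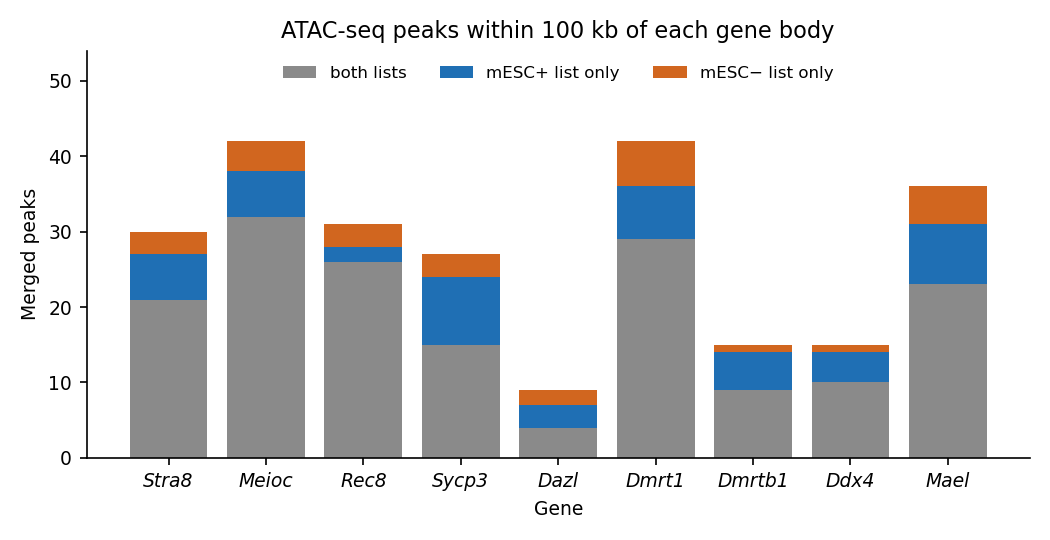
Number of merged ATAC-seq peaks within 100 kb of the body of each gene, split into peaks of both lists (grey), of the mESC+ list only (blue) and of the mESC− list only (orange). Peaks of both lists make up most of every bar except that of Dazl, where they are 4 of 9.

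Peaks of a single list were mostly weak. The 28 peaks of mESC− only had a median fold enrichment of 4.41 (3.19 to 7.70), against 4.74 over all 19885 such peaks. The 50 of mESC+ only had a median of 4.97 (3.45 to 9.82), against 5.05 over all 42631. The strongest peak of mESC− only, with a fold enrichment of 7.70 (percentile 62.4), was 69311 bp beyond the end of Dazl and had the start of Rftn1 as the nearest gene start. For Sycp3, the strongest such peak (7.38, percentile 59.3) lay 32101 bp beyond the gene and 1265 bp from the start of Chpt1. Those of Dmrt1 (6.15, percentile 44.4) and Mael (5.93, percentile 40.5) lay in introns of the genes themselves. At Rec8, the strongest (5.33, percentile 30.1) overlapped an exon of Rec8. Near Meioc, Dmrtb1 and Ddx4, they had fold enrichments of 4.57, 6.52 and 4.15 and lay at least 38302 bp outside the genes.

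The strongest peak of mESC+ only near any of the genes was found 61282 bp beyond the end of Dmrt1, closest to the start of Dmrt2, with a fold enrichment of 9.82 (percentile 75.9). Near Meioc, a peak of mESC+ only with 9.03 (percentile 71.7) lay 75425 bp before the gene. Those of Stra8 (5.81) and Mael (6.74) fell within the genes, the former across an exon and the latter in an intron.

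The highest peaks near each of the 9 genes belonged to both lists and often lay away from the starts. Near Stra8, it was the same peak in both lists, 16233 bp beyond the gene, with 20.8 in mESC+ and 18.8 in mESC− (percentiles 99.5 and 99.1). Near Ddx4, it was a peak at the start of the neighbouring gene Slc38a9 with 19.4 and 18.0. Near Dmrt1, it was a peak of 15.4 and 13.7 whose nearest gene start was that of Dmrt2. At Meioc and Dazl, the highest peaks of both lists were those described above, at the RefSeq start of Meioc and inside Dazl near its start.

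Peaks in both lists were compared by rank. For the 169 shared peaks, the median of the percentile in mESC− minus the percentile in mESC+ was −2.35 points, against −2.49 points over all 117520 shared peaks. The exact 95% interval by order statistics was −3.54 to −1.50. It treats peaks of 1 locus as independent, so it may be too narrow. A rank at least 20 points higher in mESC− was found for 14 of 169, against 6.99% of all shared peaks, and one at least 20 points higher in mESC+ for 17 of 169, against 15.1%. In total, 63 (37.3%) ranked higher after RA and 106 (62.7%) in LIF, near the 40.7% and 59.3% of all shared peaks. The median of each gene ranged from −9.05 points for Sycp3 to 4.44 points for Dmrtb1, the single positive one. For Stra8 it was −1.81 points over 21 shared peaks, of which 3 ranked at least 20 points higher in mESC− and 0 in mESC+. Without that cutoff, 7 of the 21 ranked higher in mESC− and 14 in mESC+, with a lowest difference of −19.7 points.

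The largest rise in rank toward mESC− was found in an intron of Mael, 34.5 kb downstream of its start, where the fold enrichment was 6.18 in mESC+ (percentile 44.8) and 11.9 in mESC− (percentile 87.1). An intronic peak of Dmrt1, 29.4 kb downstream of its start, followed within the gene bodies, with 5.62 (percentile 36.3) and 8.81 (percentile 70.9). The largest fall was from percentile 61.4 to 5.89, at a peak 33.8 kb downstream of the Meioc start and closest to the start of Ccdc43. These peaks were picked after their values had been seen.

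**Figure D5:**
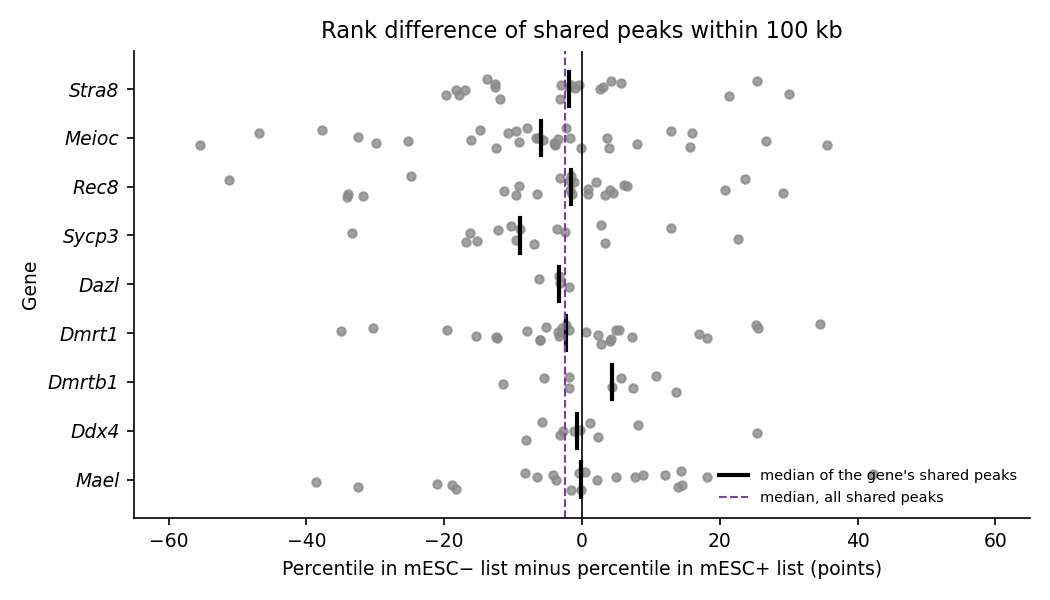
Percentile in the mESC− list minus percentile in the mESC+ list, in points, for each shared ATAC-seq peak within 100 kb of the 9 genes (dots, n = 169), with the median of each gene (black bars) and that of all shared peaks (dashed line, −2.49 points). The dots of most genes spread over both sides of 0.

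Direct repeats of the RAR half-site were searched in RefSeq promoters, from 250 bases before to 50 after the start. The promoter table matched 8 of the 9 genes by symbol, Dmrt1 being the exception, and Dmrtb1 with 2 starts. A repeat with at most 1 mismatch was found in the promoter of Stra8 and of no other gene among these 8, against 6.32% of all 32851 promoters. This holds for that window, since within 1 kb of the GENCODE start 4 of the 9 genes had one (Stra8, Rec8, Sycp3 and Mael), against 37.4% of all genes. It is the DR2 from 34920746 to 34920759 shown above (GGGTGAaaAGGTCA), which lies under the stronger of the 2 peaks called in mESC− only. A DR2 occurs in 2.30% of all promoters. The upstream peak of mESC− holds another DR2 with 1 mismatch (GGTTCAcaGTTTCA, from 34919370 to 34919383), and the start peak of both lists a DR5 with 1 mismatch on the minus strand (AGGTTAaacggAGGTCA, from 34920125 to 34920141). No repeat without a mismatch was found in 2 kb on either side of the Stra8 start or under any of its 30 merged peaks. A match describes letters and does not show that a receptor binds there.

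Among the merged peaks near the 9 genes, 20 of 247 held such a repeat with at most 1 mismatch (8.10%), against 6.87% of all merged peaks. For the peaks of mESC− only, the count was 3 of 28 (10.7%, exact 95% interval 2.27% to 28.2%), against 7.81% of all such peaks. For those of mESC+ only, it was 1 of 50 (2.00%, interval 0.0506% to 10.6%), against 3.15%. Of the 3 repeats in mESC− only, 2 were those of Stra8. In windows of 500 bases, 36 of the 141 dynamic regions higher in mESC− (25.5%) held a repeat with at most 1 mismatch and 26 of the 186 higher in mESC+ (13.98%).

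Without a mismatch, repeats were found under 5 of the 247 peaks (2.02%, exact 95% interval 0.660% to 4.66%), against 0.947% of all merged peaks, and they are shown with 20 bases on either side, on the strand of the repeat. That near Mael is a DR5 under a peak of mESC− only, that near Dmrtb1 a DR2 under a peak of mESC+ only, and the other 3 lie under peaks of both lists.
Meioc, DR2, chr11:102630755-102630808, plus strand: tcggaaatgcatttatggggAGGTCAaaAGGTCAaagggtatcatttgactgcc
Sycp3, DR1, chr10:88460229-88460281, plus strand: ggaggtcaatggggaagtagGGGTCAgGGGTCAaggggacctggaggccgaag
Sycp3, DR1, chr10:88483041-88483093, plus strand: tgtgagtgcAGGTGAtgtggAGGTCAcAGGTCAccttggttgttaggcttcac
Dmrtb1, DR2, chr4:107636064-107636117, plus strand: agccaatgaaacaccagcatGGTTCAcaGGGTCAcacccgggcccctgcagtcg
Mael, DR5, chr1:166132310-166132366, minus strand: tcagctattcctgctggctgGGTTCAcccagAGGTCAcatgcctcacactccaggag

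The first Sycp3 repeat lies under the second start peak of that gene. In the other Sycp3 sequence, the additional capitals mark a half-site that forms a DR5 with 1 mismatch. The Mael repeat is 106 kb from the gene start, and Gpa33 has the nearest start to its peak, at 2039 bp.

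Motifs bound by repressors of germline genes in stem cells were searched in the same promoters without a mismatch. The E-box CACGTG was found in those of Sycp3, Ddx4 and Mael, 3 of 8 genes, against 7.15% of all promoters. The E2F-type sequence GGCGGGAA was present in that of Ddx4 (2.19% of all promoters) and the letters CNCCTCAG, a sequence linked to STRA8 binding, in that of Dazl (7.94%). Stra8 had none of these in its RefSeq promoter. Under the start peaks of both lists, CACCTCAG was found at Stra8 from 34920178 to 34920185. Those of Dazl held 2 E-boxes and an E2F-type sequence in both lists. Those of Ddx4 held an E-box and 2 E2F-type sequences in both lists. In mESC− only, CNCCTCAG was also found under the start peaks of Sycp3 and Dazl. In mESC+ only, the E-box of Mael lay under its start peak. The start peaks of the lists differ in width, and the share of all start peaks with these letters was not computed. The bases before the starts of Sycp3 and Mael are shown because they hold the E-boxes, in capitals, with Mael on the minus strand.
Sycp3, chr10:88459369-88459568: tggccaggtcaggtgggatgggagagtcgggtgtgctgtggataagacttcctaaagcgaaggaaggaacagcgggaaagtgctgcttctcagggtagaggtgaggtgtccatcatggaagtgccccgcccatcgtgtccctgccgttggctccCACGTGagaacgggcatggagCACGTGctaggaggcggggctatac
Mael, chr1:166238748-166238997: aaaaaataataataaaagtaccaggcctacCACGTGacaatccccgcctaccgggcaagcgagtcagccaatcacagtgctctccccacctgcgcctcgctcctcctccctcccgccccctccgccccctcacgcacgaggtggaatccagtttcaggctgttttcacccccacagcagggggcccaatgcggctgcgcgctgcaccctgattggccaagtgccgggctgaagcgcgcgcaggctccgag

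The 2 E-boxes of Sycp3 lie at 88459523 to 88459528 and at 88459544 to 88459549, both under the start peak of mESC+ and of mESC−. The promoters of the 8 genes held more CpG dinucleotides in their 300 bases than the median of 7 over all promoters, whose upper quartile was 20. The fewest were counted at one of the Dmrtb1 starts, with 9, and at Stra8, with 10, while the remaining ones held between 15 (Sycp3) and 38 (Ddx4).

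Related gene lists gave the setting. Of 30 meiotic prophase genes, 2 had a row in the RNA-seq table, namely Mlh3, a mismatch repair factor of crossovers (authors' mean 2235 counts), and Tex15 (297 counts). This is 6.67%, against 9.04% of all protein-coding genes. Start peaks in both lists were present for 28 of the 30, against 65.7% of all protein-coding genes, and neither list had one for Rad21l and Rec114. Dynamic regions higher in mESC− lay within 100 kb of 3 of the 30, Hormad2, Msh5 and Psmc3ip, against 2.56% of all genes. These genes have no row in the table, and Msh5 also had a region higher in mESC+ within that distance. Of 20 genes of germ cell RNA and transposon control, 1 had a row (Tdrd5, 139 counts), and 15 had start peaks in both lists. Piwil4 and Tdrd1, both of the piRNA pathway, had one in mESC+ only, against 2.05% of all genes. A dynamic region higher in mESC− lay within 100 kb of 1 of the 20, Nanos3.

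Of 10 primordial germ cell specification genes, 4 had a row, namely Ifitm3, Kit, Prdm14 and Tfap2c, against 9.04% of all protein-coding genes. Regions higher in mESC− lay within 100 kb of 2 of these 10, Nanos3 and Sall4, and one higher in mESC+ near Ifitm3. Start peaks in both lists were present for 9 of the 10, against 65.7% of all protein-coding genes. Dppa3 had one in mESC+ only, against 2.05% of all genes. Of 20 repressors of germline genes in stem cells, 5 had a row in the RNA-seq table, against 9.04% of all protein-coding genes. They are the DNA methyltransferases Dnmt3a and Dnmt3b, their cofactor Dnmt3l, the histone methyltransferase Ehmt2 and Mga, which binds E-boxes in a Polycomb complex. Dynamic regions higher in mESC− lay within 100 kb of 4 of these 20 repressors, namely Dnmt1, Dnmt3a, Dnmt3b and Ehmt2, against 2.56% of all genes. A region higher in mESC+ lay near 1 of them, Hdac2, against 2.11%. Start peaks in both lists were present for 17 of the 20 repressors. Dnmt1 and Ehmt2, 2 of the 20, had a start peak in mESC+ only, against 2.05% of all genes. No direction is given for any of these rows.

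The cells were checked against markers, to be read against 9.04% of all protein-coding genes with a row and 65.7% with start peaks in both lists. Of 10 pluripotent stem cell markers, 4 had a row (Klf4, Sox2, Tdgf1 and Zfp42), with authors' means from 2847 counts for Klf4 to 18458 counts for Zfp42, and 9 of 10 had start peaks in both lists, Esrrb being the exception. Of 8 markers of Sertoli and gonadal somatic cells, 1 had a row (Wt1, 443 counts), and of 10 markers of late spermatogenic cells, 0 had one. Start peaks in both lists were found for 5 of the 8 Sertoli and gonadal markers (62.5%) and for 3 of the 10 late spermatogenic markers. As the table covers a part of the genes, the absence of a marker from it does not show that the marker was at 0.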

How the data were processed

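The data cover E14 cells in LIF (mESC+) or with 1 µM RA for 4 h (mESC−). The 9 genes, the gene lists and the motifs were chosen with earlier results of these data known. The authors mapped reads to GRCm38, called ATAC-seq peaks with MACS2 in each library (1 per state), and deposited for each peak a fold enrichment (ratio) and −log10 p and q values. The deposited enhancer probability is a fraction between 0 and 1 from CRUP (1 library per mark and state). For RNA-seq, the authors deposited the mean signal of DESeq2, normalized counts averaged over all 6 libraries. The submitters' notes name STAR 2.5.1b and BWA. The deposited fold changes, standard errors, test statistics and p-values of the RNA-seq table and the p-values and clusters of the regions are the authors' own comparison and were not used.

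Peak lists were merged at an overlap of at least 1 bp. Peaks were ranked by fold enrichment in their own list (percentile). Gene positions came from GENCODE M21, promoters from the RefSeq table of GRCm38 and sequences from GRCm38.p6, inside whose chromosomes all regions lie. Windows reached 100 kb beyond gene bodies and 1 kb around gene starts. No test between states was possible with 1 library or a pooled mean, so counts stand beside all features, with exact 95% intervals for counting error. Intervals over peaks treat the peaks of 1 locus as independent, so they may be too narrow. All 9 genes were named, and of each list at most 4 genes per kind with a row, a start peak in 1 list or a dynamic region, in alphabetical order. Mga, the genes without a start peak and the genes nearest to peaks were named after their values were seen. Near each gene, peaks were named at the start, at the highest fold enrichment and in 1 list only. On simulated data with known answers, the interval, rank and motif functions passed 21 of 21 checks. Read totals are unknown. The work ran in Python 3.11.15 (pysam 0.24.0, NumPy 2.4.6, SciPy 1.17.1, matplotlib 3.10.9, pandas 2.3.3).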

Additional observations from a re-analysis of the deposited data

How the results depend on the processing

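Of 55 alternative values, 37 stayed near the value given (counts within 1.5 times, shares and medians within their interval), 17 moved and 1 changed sign. The latter was the rank difference of the Stra8 start peak, −1.81 points by fold enrichment and 12.4 points by −log10 p, an alternative added after seeing the data. The cause was not tested. With the top 50000 peaks of each list by −log10 p, 10.2% of the peaks near the genes were in mESC+ only, against 15.0% of all peaks, and the median rank difference of shared peaks was −1.06 points, against 0.562 points over all shared peaks. Without a mismatch, 0 of 8 promoters held a direct repeat, against 0.588% of all promoters, and 2.02% of the peaks did, against 0.947% of all merged peaks. Within 1 kb of the gene start, 4 of 9 genes held one (Stra8, Rec8, Sycp3 and Mael), against 37.4% of all genes. Per kb of the longest transcript, the level percentiles were 74.0 for Stra8, 59.9 for Sycp3 and 69.4 for Dmrt1, so that Stra8 was no longer above the upper quartile, and without length correction 58.9, 37.6 and 60.01. Members with a start peak numbered 6 to 9 in mESC+ and 7 to 8 in mESC− over 7 alternatives, of which the RefSeq starts (8 genes matched) were added after seeing the data. The order of the states depended on the setting. From 250 bases before to 50 after the start, the counts were 6 in mESC+ and 7 in mESC−, with Dazl in mESC− only. With the top 50000 peaks they were also 6 and 7, with Dmrt1 in mESC− only. The shares of all genes were not computed for these settings. The dynamic region next to Stra8 was the only one found from 20 to 200 kb around the 9 genes. No paired analysis was possible because the replicate numbers belong to RNA-seq libraries that enter as 1 pooled mean. For the same reason, and with 1 library per state in the other assays, no replicate could be left out. Read totals are unknown, so peaks missing from a list may lie below its limit of calling.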
